A study of Mus musculus with 47 samples.

Results

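The 4659 genomic regions described here are the PHF10 sites of untreated control NMuMG cells at which BRG1 was also called. They were chosen by the peak lists themselves. Overlapping peaks of the 2 control PHF10 lists of 0 h were joined into sites on chromosomes 1 to 19, X and Y, and a site was kept where both lists had a peak, which gave 8634 sites. A site counted as having BRG1 where it overlapped a peak of the control BRG1 list of 0 h by at least 1 bp. That held for 54.0% of the sites (exact Clopper-Pearson 95% interval 52.9 to 55.0), and the other 3975 sites, with no BRG1 peak, are the comparison.

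NMuMG is a mouse mammary gland epithelial cell line that undergoes an epithelial to mesenchymal transition under TGFβ1. The study used Pbrm1 KO cells, whose library names carry the guide label sg3, and control cells, whose names carry sgCt, and treated both with 5 ng/ml TGFβ1 for 0, 24 or 48 h. Its 47 samples are 32 ChIP-seq libraries, each with 1 deposited peak list, and 15 inputs. KO cells were profiled for PHF10 at 0 and 48 h, for ATF3 at 0, 24 and 48 h and for FOSL2 and FOSB at 0 and 48 h. Control cells had the same lists, PHF10 also at 24 h, and in addition 5 histone marks at 0 and 48 h and BRG1 at 0 h only. Cells for PHF10, BRG1 and ATF3 were crosslinked with DSG and formaldehyde, and those for FOSL2, FOSB and the histone marks with formaldehyde alone. The labels do not say whether the KO cells were a clone or a pool, nor whether replicates came from separate cultures, and a peak list cannot show the disruption of Pbrm1.

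SWI/SNF complexes are chromatin remodellers that use ATP to slide and evict nucleosomes. BRG1, the product of Smarca4, is an ATPase motor shared by several forms of the complex. PHF10 and PBRM1 are subunits of the PBAF form, together with ARID2 and BRD7. Among the histone marks, H3K4me3 is typical of active promoters, H3K27ac of active promoters and enhancers, and H3K4me1 of enhancers and of the flanks of promoters. H3K14ac and H3K18ac are further acetylations of histone H3, and ATF3, FOSL2 and FOSB are basic leucine zipper transcription factors, of which the FOS proteins bind AP-1 sites with JUN partners.

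Control PHF10 at 0 and 48 h had 2 libraries each and every other condition 1, so no difference below carries a test. Intervals are 95% intervals for counting error over sites only. The value given for a peak is the authors' fold enrichment over input, which can be compared within 1 list but not between lists, and the percentile of a fold is its rank among all peaks of its list. Lists held from 2 to 158815 peaks, read depth is unknown, and a longer list has more chances to overlap a site. As a check of the labelled cell type, H3K4me3 at 0 h lay within 2 kb of a start at 29 of 35 epithelial genes, 45 of 50 mesenchymal and TGFβ response genes, 9 of 25 markers of other cell types and 13790 of all 21887 protein-coding genes, so this mark does not set epithelial genes above mesenchymal ones. High-signal regions of the genome were not removed.

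The sites lay mostly on promoters, so the promoter windows of 6 genes are shown. Each window runs from 250 bases before to 50 bases after a gene's start, 300 bases in all, read 5′ to 3′ in the gene's direction from RefSeq on GRCm38.p6, the mm10 build of the peak lists. Among sites with a gene start within 100 kb, the site of Rev1 had the highest PHF10 rank. That of Pcgf3 was the strongest of those not called in KO cells at 0 h. Phf10 and Smarca4 encode the 2 proteins that define the set, and Ezr and Srxn1 had FOSL2 or FOSB peaks after TGFβ1. Capitals mark 2 motifs, read on both strands: the GC box GGGCGG, bound by SP and KLF factors, and the AP-1 site TGANTCA, bound by FOS and JUN proteins. Neighbouring GC boxes that overlap are counted separately.
Rev1 promoter window, chr1:38129617-38129916, minus strand: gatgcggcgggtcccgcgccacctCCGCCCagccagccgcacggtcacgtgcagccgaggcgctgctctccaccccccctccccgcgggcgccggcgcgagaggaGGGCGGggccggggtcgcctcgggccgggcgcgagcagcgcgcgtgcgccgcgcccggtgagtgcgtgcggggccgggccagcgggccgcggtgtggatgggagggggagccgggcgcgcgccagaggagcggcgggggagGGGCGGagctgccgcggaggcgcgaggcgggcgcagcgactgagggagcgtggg
Phf10 promoter window, chr17:14961211-14961510, minus strand: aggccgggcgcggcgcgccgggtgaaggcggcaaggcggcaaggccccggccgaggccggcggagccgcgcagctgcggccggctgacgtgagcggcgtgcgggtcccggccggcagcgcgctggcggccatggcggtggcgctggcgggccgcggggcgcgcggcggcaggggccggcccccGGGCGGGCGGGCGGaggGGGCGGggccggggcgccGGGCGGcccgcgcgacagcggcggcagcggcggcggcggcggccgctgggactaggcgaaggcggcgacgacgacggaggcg
Smarca4 promoter window, chr9:21615919-21616218, plus strand: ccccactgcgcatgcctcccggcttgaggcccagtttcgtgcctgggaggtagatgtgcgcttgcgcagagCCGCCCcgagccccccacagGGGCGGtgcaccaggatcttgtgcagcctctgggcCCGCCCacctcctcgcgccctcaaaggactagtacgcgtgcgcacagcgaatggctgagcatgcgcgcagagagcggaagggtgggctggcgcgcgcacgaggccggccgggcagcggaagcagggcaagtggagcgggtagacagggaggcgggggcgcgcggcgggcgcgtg
Pcgf3 promoter window, chr5:108461009-108461308, plus strand: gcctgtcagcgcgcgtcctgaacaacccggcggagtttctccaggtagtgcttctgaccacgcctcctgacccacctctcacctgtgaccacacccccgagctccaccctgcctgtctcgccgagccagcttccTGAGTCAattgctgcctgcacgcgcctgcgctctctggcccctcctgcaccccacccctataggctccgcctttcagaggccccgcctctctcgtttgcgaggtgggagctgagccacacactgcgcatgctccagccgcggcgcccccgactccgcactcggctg
Ezr promoter window, chr17:6782731-6783030, minus strand: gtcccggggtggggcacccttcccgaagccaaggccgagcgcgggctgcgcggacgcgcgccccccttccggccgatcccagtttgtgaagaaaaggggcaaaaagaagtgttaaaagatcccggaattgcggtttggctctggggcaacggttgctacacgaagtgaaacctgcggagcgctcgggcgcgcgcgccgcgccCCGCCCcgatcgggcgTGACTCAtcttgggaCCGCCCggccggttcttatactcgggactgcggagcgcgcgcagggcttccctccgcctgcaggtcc
Srxn1 promoter window, chr2:152105274-152105573, plus strand: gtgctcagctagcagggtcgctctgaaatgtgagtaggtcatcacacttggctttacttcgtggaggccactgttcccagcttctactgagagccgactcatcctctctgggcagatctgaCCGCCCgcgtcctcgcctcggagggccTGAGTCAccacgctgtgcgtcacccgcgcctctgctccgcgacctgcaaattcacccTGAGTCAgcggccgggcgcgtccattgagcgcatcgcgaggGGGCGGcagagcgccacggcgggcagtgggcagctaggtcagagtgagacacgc
The Rev1 and Phf10 windows were the most GC-rich of the 6, at 83% and 87%, with 51 and 62 CpG dinucleotides, 3 and 5 GC boxes and no AP-1 match. The Smarca4 window had 72.3% GC and 3 GC boxes. The Pcgf3 window had 67.3% GC, 1 AP-1 match and no GC box, the Ezr window 68% GC, 2 GC boxes and 1 AP-1 match, and the Srxn1 window 64.3% GC, 2 GC boxes and 2 AP-1 matches. A match is a description of these letters and not a measured binding site.

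Promoter windows that overlapped the sites were rich in CpG. A window was found for 17492 of 21887 protein-coding genes, and 3996 windows of 3453 genes overlapped a site with BRG1, against 2227 windows of 2005 genes at sites without BRG1. Median GC content was 68.7% at sites with BRG1, 66.7% at sites without BRG1, 52.0% where no PHF10 site lay on the window and 56.3% over all 21263 windows. The median number of CpG dinucleotides was 30, 27 and 6 in those 3 classes, and 13 over all windows. The GC box was present in 83.8% of windows with BRG1, 78.6% of windows without BRG1 and 46.2% of all windows. The YY1 core ATGGCGG was in 10.0% of windows with BRG1, 7.18% of those without and 5.25% of all, and the ETS motif CCGGAAG in 15.7%, 14.6% and 11.6%. The AP-1 motif was in 2.88% of windows with BRG1, 2.74% of those without and 6.99% of all windows. A YY1 core can share letters with a GC box, and both strands were searched for every motif. In base composition the 2 PHF10 classes lay near each other and apart from the windows without PHF10. A start of another gene on the opposite strand within 1 kb upstream was found for 11.3% of windows with BRG1, 8.98% of those without and 7.97% of all.

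The sites with BRG1 were wider and nearer to gene starts than those without. Their median width was 790 bp (quartiles 571 and 1094, range 223 to 8575), against 612 bp (quartiles 433.5 and 907) without BRG1. A protein-coding start lay inside 3705 sites with BRG1 (79.5%, 78.3 to 80.7) and inside 2160 sites without (54.3%, 52.8 to 55.9). More than 10 kb from a start lay 239 sites with BRG1 (5.13%) and 652 without (16.4%). Median PHF10 fold, which helped to choose both classes, was 11.5 in replicate 1 and 4.32 in replicate 2 with BRG1, and 8.78 and 3.95 without. Width and PHF10 strength thus moved with class, and the part of width in the comparisons below was not tested.

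Within 2 kb of a gene start of known strand, PHF10 and its neighbours sat mostly just inside the gene. The centre of the PHF10 site lay a median of 159 bp downstream of the start, and the centre of the BRG1 peak 220.5 bp downstream, over 3476 and 3465 sites. The summit of H3K4me3 at 0 h lay 248 bp downstream, that of H3K27ac at 0 h 192 bp and that of ATF3 at 48 h 248 bp. The FOSL2 summits of control cells at 48 h differed in position, with a median 93.5 bp upstream of the start and 67.9% of 28 upstream. By comparison 17.4% of PHF10 centres were upstream. At sites without BRG1 the PHF10 centre lay 152.5 bp and the H3K4me3 summit 187 bp downstream.

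**Figure D1:**
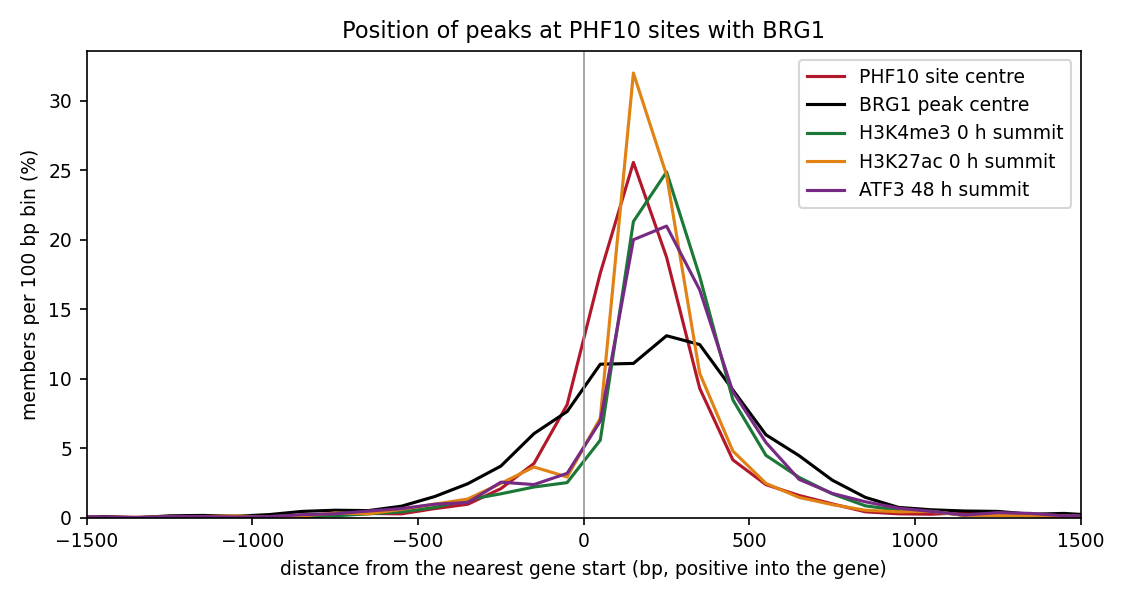
Position of peaks at PHF10 sites with BRG1, relative to the nearest gene start of known strand, for positions within 2 kb of it. The horizontal axis is the distance from the start in bp, positive into the gene, and the vertical axis the percentage of sites per 100 bp bin. All 5 curves have most of their weight downstream of the start, and the BRG1 centres are spread more widely than the PHF10 centres.

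The BRG1 peaks behind the rule were weak as calls. Their median −log10 q at the sites was 2.15 (quartiles 1.65 and 2.89, lowest 1.02), and 116 sites had a BRG1 peak with −log10 q of at least 5. The whole BRG1 list was weak too, with a median of 1.81 and 1812 of its 29215 peaks at 5 or more. Median BRG1 fold at the sites was 2.84 (range 1.23 to 5.30), next to a median of 2.90 over the whole list. The overlap was 1 bp at the least and 537 bp in the median, and BRG1 peaks covered at least 50% of 3521 sites (75.6%). At the edge of the rule, 32 sites overlapped BRG1 by under 50 bp, with a median PHF10 fold of 7.62 in replicate 1, 34.4% with H3K4me1 at 0 h and 100% with H3K27ac at 48 h. Just outside it, 37 sites had a BRG1 peak within 100 bp but no overlap, with a PHF10 fold of 8.68, H3K4me1 at 51.4% and H3K27ac at 86.5%. The median gap from a site without BRG1 to the nearest BRG1 peak was 23073 bp.

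Only 4676 of the 29215 BRG1 peaks (16.0%) lay at these sites, and the marks around them differed from those at the other 24539. H3K4me3 at 0 h was called at 100% of BRG1 peaks at the sites and at 9.96% of those elsewhere, H3K27ac at 99.7% and 15.1%, and H3K14ac at 48.7% and 0.02%. FOSL2 at 48 h in control cells went the other way, with 1.48% at the sites and 6.73% elsewhere. Median BRG1 fold was 2.84 at the sites and 2.91 elsewhere, median −log10 q 2.14 and 1.74, and median width 814.5 bp and 530 bp.

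The strongest sites and those with the highest BRG1 show the range of values. Rev1 encodes a translesion DNA polymerase, and its site at chr1:38129028-38130263 had a BRG1 fold of 3.29 at 0 h. In KO cells its PHF10 fold was 2.79 at 48 h and 11.7 at 0 h. In control cells it was 23.9 and 9.55 in the 0 h replicates, 10.4 at 24 h and 9.80 and 2.63 in the 48 h replicates. Its ATF3 fold at 48 h was 16.8 in KO and 50.2 in control cells. H3K14ac was 42.8 at 48 h and 26.98 at 0 h, H3K18ac 114 and 3.96, H3K27ac 141 and 122 and H3K4me3 61.9 and 71.5, while H3K4me1 was called at 48 h alone, at 4.14. Rev1 was thus called in every PHF10 list, and the folds of separate lists were not compared. The other 7 sites with the highest PHF10 rank lay at Atp13a3, Tnks2, Tmem117, Dock8, Abhd17b, Ano8 and Dtx4, among them a poly-ADP-ribosyltransferase gene, Tnks2, and a guanine nucleotide exchange factor gene, Dock8. The highest BRG1 folds were 5.30 at Ccdc71l, 5.01 at Tspan4, a tetraspanin gene, 4.85 at Fnip1, which encodes a partner of folliculin, 4.83 at Smco4, 4.79 at Smim13 and 4.71 at Phf10.

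The genes of PHF10 and BRG1 themselves carried sites with BRG1. At Phf10, chr17:14960763-14961323, the PHF10 fold at 0 h was 6.17 in KO cells, against 15.0 and 5.30 in the control replicates. At Smarca4, chr9:21615945-21616690, it was 5.68 in KO cells, against 8.00 and 4.91 in the control replicates. BRG1 fold was 4.71 at Phf10 and 2.57 at Smarca4. H3K14ac at 0 h was called at Phf10, at 10.3, and not at Smarca4, and H3K18ac at 0 h was called at Smarca4, at 4.16, and not at Phf10. Fosl2 also had a site with BRG1, with a PHF10 fold of 7.73 and 3.75. Pbrm1 had a PHF10 site without BRG1, and Atf3 and Fosb had no PHF10 site within 2 kb of a start.

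The active promoter marks were called at nearly all sites with BRG1. H3K4me3 was called at 4656 sites with BRG1 at 48 h (99.9%), against 98.2% without BRG1 and 99.2% of all PHF10 sites, and at 0 h at all 4659, against 99.1% without and 99.6% of all. H3K27ac was called at 99.5% at 48 h, against 80.5% without and 90.8% of all, and at 99.8% at 0 h, against 91.2% without and 95.9% of all. The classes differed more in the strength of these marks than in their presence. The median H3K4me3 fold was 51.7 with BRG1 and 14.7 without at 48 h, and 64.6 and 15.8 at 0 h. The median H3K27ac fold was 103.1 with BRG1 and 12.1 without at 48 h, and 98.9 and 8.16 at 0 h, which put the sites with BRG1 at the 85.5 percentile and those without at the 45.3 percentile of the 0 h list. Of the 1000 H3K27ac peaks with the highest fold at 0 h, 88.8% lay at a site with BRG1 and 9.5% at a site without. The differences at 0 h were 0.881 points for H3K4me3 (0.620 to 1.22) and 8.68 points for H3K27ac (7.82 to 9.61). Joining the sites from 1 PHF10 list only gave larger values, of 22.5 points without replicate 2 and 15.0 without replicate 1 for H3K4me3, and of 33.1 and 32.0 for H3K27ac. Among sites within 2 kb of a start the H3K4me3 difference was 0.000 points (−0.090 to 0.132). With −log10 q of at least 5 in every list it was 0.223 (−3.67 to 0.486), and the H3K27ac difference turned to −1.21 points.

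**Figure D2:**
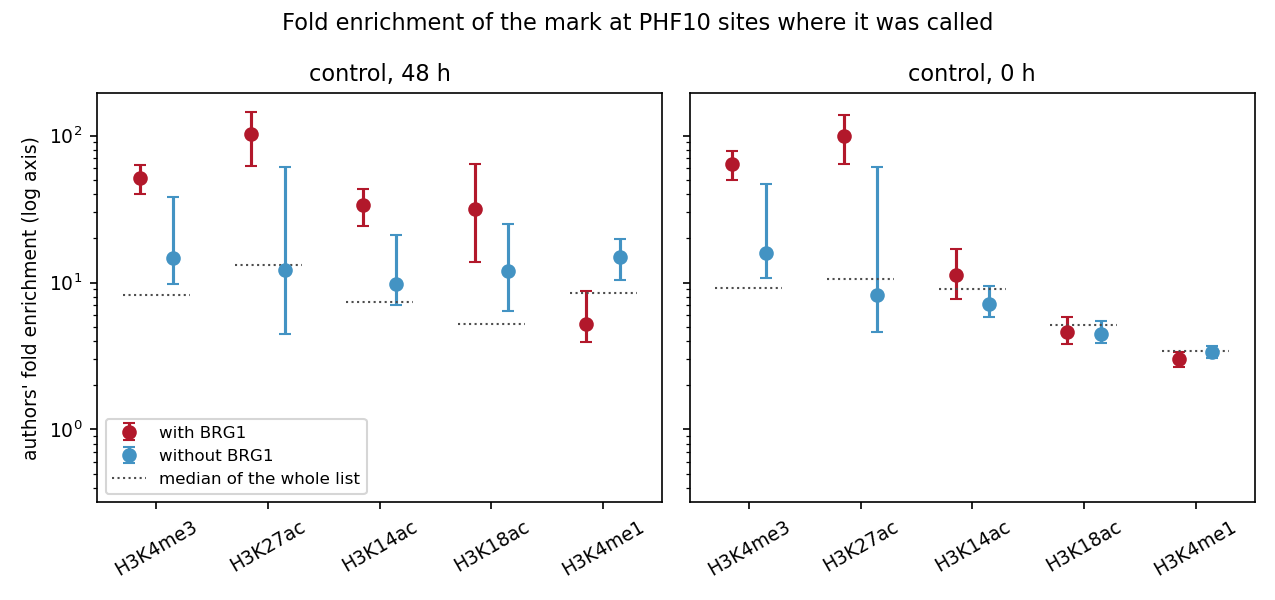
Authors' fold enrichment of 5 histone marks at PHF10 sites where the mark was called, at 48 h and 0 h in control cells. Points are medians and bars the quartiles on a log axis, red for sites with BRG1 and blue for sites without, and the dotted line is the median of the whole list. The red points lie above the blue ones for H3K4me3 and H3K27ac at both times, and below them for H3K4me1.

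H3K4me1 ran against the other marks. It was called at 2703 sites with BRG1 at 48 h (58.0%, 56.6 to 59.4), against 78.5% without BRG1 and 67.4% of all PHF10 sites. At 0 h it was called at 1806 sites with BRG1 (38.8%, 37.4 to 40.2), against 73.3% without (71.9 to 74.7) and 54.7% of all, a difference of −34.5 points (−36.5 to −32.6). Where it was called at 48 h its median fold was 5.19 with BRG1 and 14.9 without. Some 2853 sites with BRG1 (61.2%) had H3K4me3 and H3K27ac without H3K4me1 at 0 h, against 997 sites without BRG1 (25.1%). H3K4me1 was called at 48 h and not at 0 h at 1103 sites with BRG1 (23.7%) and at 270 sites without (6.79%). The 0 h difference was −30.6 points among sites within 2 kb of a start alone. It was −21.1 points with the sites of replicate 1 alone and −19.5 with those of replicate 2 alone, −12.6 with the BRG1 peaks held to −log10 q of at least 5, and 1.57 (−6.42 to 11.3) with that threshold in every list, where 95 sites with BRG1 were left.

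Within the sites, H3K4me1 went with width and distance. The 1806 sites with H3K4me1 at 0 h had a median width of 883.5 bp and 86.8% lay within 2 kb of a start, while the 2853 sites without it had 746 bp and 94.7%. Median H3K27ac fold at 0 h was 71.2 with H3K4me1 and 114 without it, and H3K18ac at 0 h was called at 16.2% and 34.6%. Of the 172 sites wider than 2 kb, 70.3% had H3K4me1 at 0 h.

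H3K14ac and H3K18ac were called at different shares of the classes, with 0 h lists of 3453 and 13226 peaks. H3K14ac was called at 99.98% of sites with BRG1 at 48 h, against 98.7% without and 99.4% of all. At 0 h it was called at 2325 sites with BRG1 (49.9%), against 16.9% without and 34.7% of all, a difference of 33.0 points (31.1 to 34.8). H3K18ac was called at 4342 sites with BRG1 at 48 h (93.2%), against 39.2% without and 68.3% of all, a difference of 54.0 points (52.3 to 55.7). At 0 h H3K18ac was called at 27.5% of sites with BRG1, against 4.25% without and 16.8% of all. The 2 deposited 0 h lists of these marks differ from the rest in format, with a header line and rounded values, and how this arose is not given in the sources used here, so the times cannot be set against each other. The H3K18ac difference at 48 h was 2.49 points with −log10 q of at least 5 in every list and 26.0 with that threshold on BRG1 alone, and it was 65.7 points without PHF10 replicate 2 and 59.7 without replicate 1.

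At 48 h, 4341 sites with BRG1 (93.2%) carried H3K4me3, H3K27ac, H3K14ac and H3K18ac together, against 1553 sites without BRG1 (39.1%). Median H3K18ac fold where called was 31.6 with BRG1 and 11.9 without. The site at Skil, which encodes a repressor of SMAD signalling, had an H3K18ac fold of 172.5 at 48 h and 10.6 at 0 h. Arid2, the gene of a PBAF subunit, had 166 and 17.2, and Lats2, the gene of a Hippo pathway kinase, had 151 and 6.18. The folds of 0 and 48 h come from separate lists and were not compared. The 317 sites with no H3K18ac at 48 h were of another kind, with H3K4me1 at 0 h at 75.4% and a median H3K27ac fold at 0 h of 18.9.

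**Figure D3:**
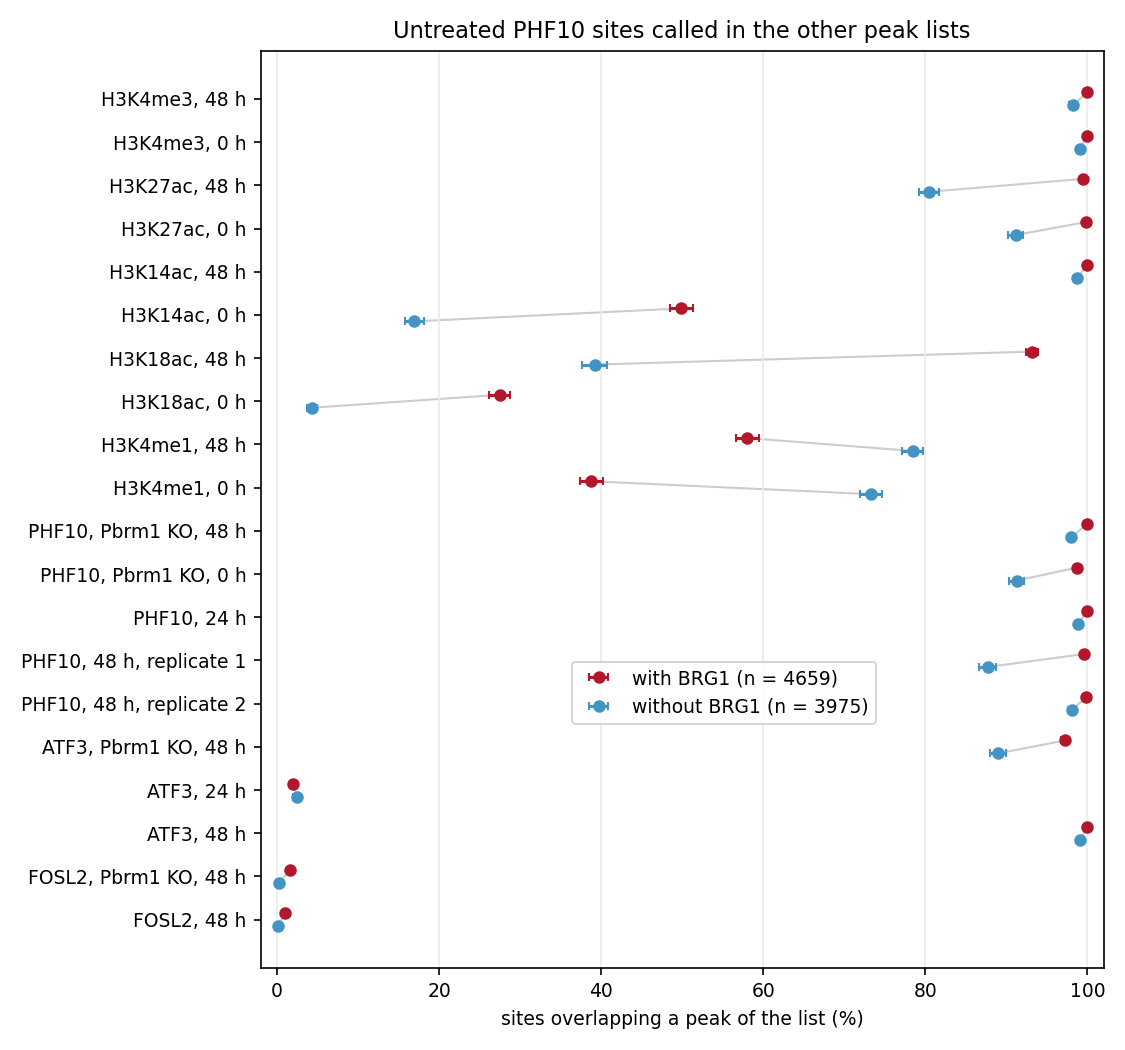
Percentage of PHF10 sites that overlap a peak in each of 20 other lists, red for the 4659 sites with BRG1 and blue for the 3975 without. Bars are exact 95% intervals for counting error and are mostly narrower than the points. H3K18ac at 48 h, H3K4me1 at 0 h and H3K14ac at 0 h show the widest gaps between the classes, and H3K4me1 is the mark with the blue points to the right.

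PHF10 strength went with acetylation, and the class differences for H3K4me1, H3K18ac and H3K27ac at both times and for H3K14ac at 0 h had the same sign in each of 4 groups of strength. H3K4me3, and H3K14ac at 48 h, were not divided in this way. All 8634 sites were divided into 4 equal groups by the mean percentile of their fold in the 0 h PHF10 lists. From the weakest to the strongest group, H3K14ac at 0 h was called at 6.09, 25.4, 49.4 and 83.2% of sites with BRG1, and at 3.24, 15.7, 24.5 and 47.9% of sites without. H3K18ac at 48 h was called at 80.9, 89.5, 95.8 and 98.8% with BRG1, and at 28.2, 38.6, 46.7 and 59.9% without. H3K4me1 at 0 h hardly varied with strength, at 39.4, 40.0, 39.6 and 37.2% with BRG1 and 74.2, 73.9, 73.2 and 69.2% without. At 48 h it was called at 41.1, 51.6, 58.6 and 68.6% with BRG1 and at 76.8, 78.0, 80.6 and 80.5% without, so the difference was −35.7 points in the weakest group and −11.9 in the strongest. PHF10 in KO cells at 0 h was called at 94.99, 98.4, 99.7 and 99.8% with BRG1 and at 85.0, 93.3, 94.1 and 100% without, so the difference of 9.99 points in the weakest group had become −0.17 (−0.51 to 0.70) in the strongest. Beyond 10 kb from a start, H3K18ac at 48 h was called at 80.3% with BRG1 and 15.3% without.

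**Figure D4:**
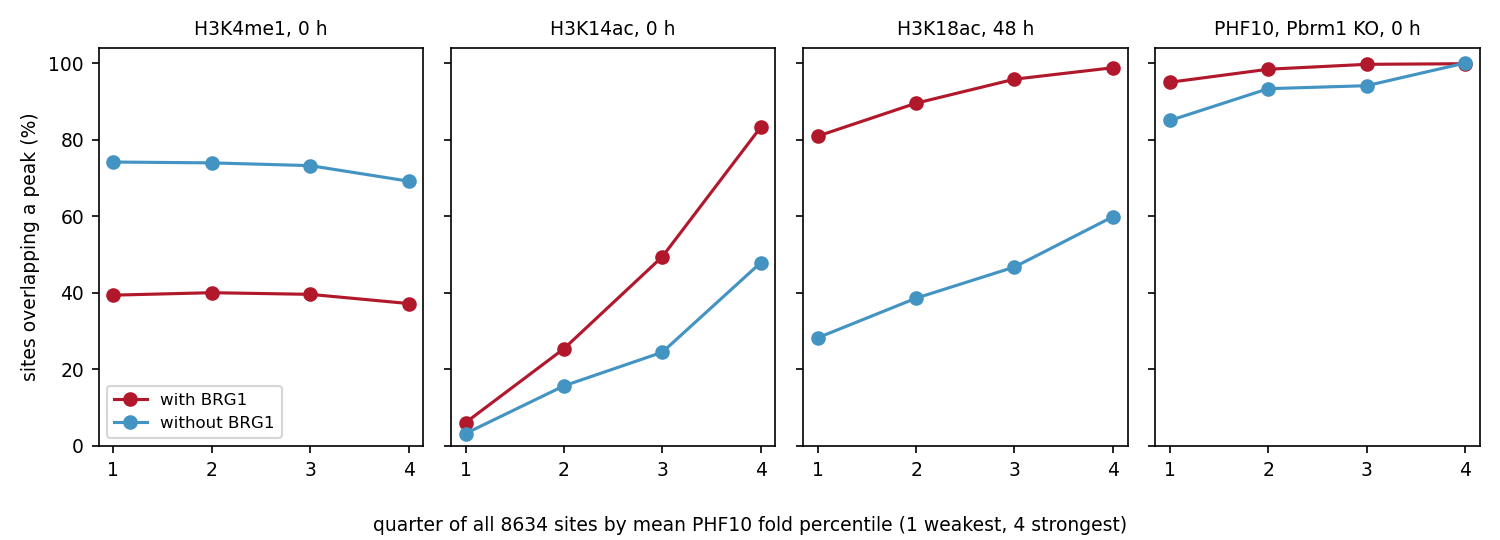
Percentage of PHF10 sites with a peak for H3K4me1 at 0 h, H3K14ac at 0 h, H3K18ac at 48 h and PHF10 in KO cells at 0 h, in 4 groups of PHF10 strength at 0 h, with 1 the weakest. Red lines are sites with BRG1 and blue lines sites without. The H3K4me1 lines are nearly flat, both H3 acetylation lines climb, and the PHF10 KO lines meet in the strongest group.

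PHF10 strength, acetylation and H3K4me1 also varied with the strength of the BRG1 call. In 4 groups of sites by BRG1 −log10 q, from low to high, the median PHF10 fold in replicate 1 was 9.87, 10.9, 11.96 and 13.6. H3K14ac at 0 h was called at 35.5, 46.1, 55.3 and 62.7%, and H3K18ac at 0 h at 16.0, 23.5, 33.1 and 37.3%. H3K4me1 at 0 h was called at 44.5, 37.5, 36.7 and 36.4%. The Spearman correlation of PHF10 replicate 1 fold with BRG1 fold over the sites was 0.131, and with H3K27ac fold at 0 h 0.332. The PHF10 and BRG1 values come from the lists that chose the sites. All values here are descriptions across sites that share their libraries.

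PHF10 was called again at nearly all of the sites in both genotypes. In KO cells PHF10 was called at 99.9% of the sites with BRG1 at 48 h, against 98.0% without BRG1 and 99.1% of all sites. At 0 h PHF10 was called in KO cells at 4599 sites with BRG1 (98.7%, 98.3 to 99.0), against 91.3% without and 95.3% of all. The difference was 7.44 points (6.53 to 8.40), from a list of 11515 peaks. It was 31.4 points with sites from control 0 h replicate 1 alone and 36.4 with those from replicate 2 alone, and 3.72 points among sites within 2 kb of a start. Median fold in the KO list of 0 h was 6.11 with BRG1 and 5.28 without. The fold in KO cells at 0 h correlated with that of control replicate 1, whose list helped to choose the sites, at a Spearman value of 0.552. This is a description across sites. There was 1 KO library, so the genotypes were not tested.

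In control cells after TGFβ1 PHF10 was called at all 4659 sites with BRG1 at 24 h, against 98.8% without BRG1 and 99.5% of all sites. At 48 h it was called at 99.6% with BRG1 in replicate 1, against 87.7% without and 94.2% of all, and at 99.9% in replicate 2, against 98.1% without and 99.0% of all. Both 48 h replicates had a peak at 99.5% of sites with BRG1, against 87.4% without and 93.9% of all, a difference of 12.1 points (11.1 to 13.2). That difference rested on replicate 1, since it was 1.81 points in replicate 2 alone, whose list held 102434 peaks, against 43549 in replicate 1. With sites joined from 1 untreated list it was 36.2 points without 0 h replicate 2 and 30.3 without 0 h replicate 1, and it was 5.28 with the BRG1 peaks held to −log10 q of at least 5. By fold the sites stood at a median percentile of 85.3 with BRG1 and 49.5 without in the 48 h list of replicate 1, and at 44.5 and 59.0 in that of replicate 2. By −log10 q they stood at 93.0 and 65.3 in replicate 1 and at 80.9 and 75.05 in replicate 2, so the rank in replicate 2 depended on the measure. Across the sites the folds of the 48 h replicates had a Spearman correlation of 0.067, and those of the 0 h replicates, whose lists chose the sites, 0.268.

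The 60 sites with BRG1 that had no PHF10 peak in KO cells at 0 h were narrow and weak. Their median width was 389.5 bp, their median PHF10 fold in control replicate 1 was 5.18, none had H3K14ac at 0 h, and H3K18ac at 48 h was called at 50.0%. Of these sites, 58 had PHF10 in every other list. Pcgf3, the gene of a variant Polycomb subunit, was the strongest of those with a gene start within 100 kb, at chr5:108461129-108461677. Its PHF10 fold was 3.24 in KO cells at 48 h with no peak at 0 h, and 13.2 and 5.53 in the 0 h replicates of control cells, 4.22 at 24 h and 3.02 and 3.05 in the 48 h replicates. Its H3K27ac fold was 143 at 48 h and 155 at 0 h. Next came Slc6a4, the serotonin transporter gene, at 12.2 and 4.77 in the control replicates, and then Slf1, Zfp871, Gm42163 and Spg21.

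Only 4 sites with BRG1 had no PHF10 peak in KO cells at 48 h, those of Synrg, Tfg, Rmc1 and Edc3, named after their values were seen. Synrg encodes a protein of clathrin-dependent trafficking. Its site at chr11:83964248-83964836 had PHF10 folds of 7.84 in KO cells at 0 h, and of 14.6 and 7.32 at 0 h, 10.7 at 24 h and 5.06 and 3.38 at 48 h in control cells. ATF3 at 48 h was also not called there in KO cells, against a fold of 13.9 in control cells.

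H3K27ac was called at 0 h and not at 48 h at 15 sites with BRG1 and at 500 without BRG1, and at 48 h and not at 0 h at 0 and 75 sites. The 15 were weak for the mark already at 0 h. Among those with a gene start within 100 kb, the highest 0 h folds were 6.94 at Avp, the vasopressin gene, and 6.85 at Erbb4, a neuregulin receptor gene. Next came 6.69 at Grik4, a kainate receptor subunit gene, 6.30 at Icam5 and at Zfp945, and 6.12 at Asb18. The Grik4 and Asb18 sites lay 46478 and 21524 bp from the gene's start, and those of Zfp945 and Icam5 9458 and 4909 bp. At Erbb4 PHF10 was called in every list, with a fold of 3.51 at 48 h and 5.08 at 0 h in KO cells. H3K4me1 fold there was 13.1 at 48 h and 3.496 at 0 h. Another 7 sites with BRG1 had no H3K27ac at either time, against 276 without BRG1.

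ATF3 was called at few of these sites before 48 h and at nearly all of them at 48 h, and its lists were shorter before 48 h. The KO lists held 25, 69 and 144513 peaks at 0, 24 and 48 h. The control lists held 20, 2004 and 45716 peaks at those times. In KO cells ATF3 was called at 6 sites with BRG1 at 0 h, against 0.151% of all PHF10 sites, at 3 sites at 24 h, against 0.162% of all, and at 4533 sites at 48 h (97.3%, 96.8 to 97.7), against 89.0% without BRG1 and 93.5% of all. In control cells it was called at 6 sites at 0 h, against 0.127% of all, at 90 sites at 24 h (1.93%), against 2.47% without BRG1 and 2.18% of all, and at all 4659 sites at 48 h, against 99.1% without BRG1 and 99.6% of all. The control difference at 48 h was 0.855 points (0.599 to 1.19), and 22.6 points without PHF10 0 h replicate 2 and 14.05 without replicate 1. It was 0.069 points (−0.034 to 0.250) within 2 kb of a start and 0.112 (−3.78 to 0.328) with −log10 q of at least 5 in every list. Median ATF3 fold at 48 h in control cells was 10.1 with BRG1 and 9.15 without. The ATF3 folds of KO and control cells at 48 h had a Spearman correlation of 0.204 across the sites.

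ATF3 at 48 h was called in control cells only at 126 sites with BRG1 (2.70%) and at 405 without BRG1 (10.2%). The 126 sites were narrower than the set as a whole, with a median width of 488 bp, and 16.7% had H3K14ac at 0 h. Of the 90 sites with ATF3 at 24 h in control cells, 87 had no ATF3 peak in the KO list of 24 h. Of the 98 such sites without BRG1, 87 had none either. The KO list of 24 h held 69 peaks, against 2004 in the control list. The highest control fold at 24 h among the 90 sites was 7.85, at a site with no gene start within 100 kb. Among those with such a start, the highest were 5.41 at Fgfrl1, a fibroblast growth factor receptor-like gene, 4.61 at Ahdc1 and 4.56 at Basp1. Then came 4.43 at Lpar3, a lysophosphatidic acid receptor gene, 4.30 at Lhfpl2 and 4.198 at Sgpl1, which encodes the lyase of sphingosine phosphate. The Ahdc1 site lay 27014 bp from the gene's start. The median fold of all 90 stood at the 17.6 percentile of the list.

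Before treatment, ATF3 peaks at the sites lay at few genes. Hes1, a Notch target gene, had 2 such sites, with ATF3 folds of 6.85 and 6.30 in KO cells and 6.59 and 8.37 in control cells. At Rev1 the folds were 6.68 in KO cells and 5.12 in control cells. In control cells ATF3 was also called at Raph1, at 7.31, and at H1f0, a linker histone gene, at 4.07. The 0 h FOSL2 and FOSB peaks at the sites fell far from genes. FOSL2 at 0 h was called at 3 sites in KO cells, against 0.0347% of all PHF10 sites, and at 2 in control cells, against 0.0232%. FOSB at 0 h was called at 1 site in KO cells, against 0.0232%, and at 2 in control cells, against 0.0463%. All of these lay more than 100 kb from any protein-coding start, at chr2:98666252-98667334, chr3:5860430-5860835 and chr17:39843009-39848842. The chr2 site had a peak in all 4 of those lists, although they held 2 to 7 peaks each. ATF3 at 0 h was also called there in both genotypes, and at chr9:3021753-3030327 in KO cells. The 3 sites with ATF3 at 24 h in KO cells were this chr9 site and the chr2 and chr17 sites. The chr9 site too lay more than 100 kb from any start.

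FOSL2 was called at few of the sites after TGFβ1, and at fewer still of the sites without BRG1. In KO cells at 48 h it was called at 76 sites with BRG1 (1.63%, 1.29 to 2.04), against 8 without BRG1 (0.201%, 0.087 to 0.396) and 0.973% of all PHF10 sites. In control cells it was called at 46 sites with BRG1 (0.987%, 0.724 to 1.31), against 4 without (0.101%, 0.027 to 0.257) and 0.579% of all, a difference of 0.887 points (0.594 to 1.22). It was 3.54 points with −log10 q of at least 5 in every list. Both lists had a peak at 40 of the sites with BRG1, 36 had one in KO cells alone and 6 in control cells alone. At sites without BRG1 these counts were 3, 5 and 1. The lists held 7381 peaks in KO and 3444 in control cells. The 46 control sites had a median BRG1 −log10 q of 3.24, against 2.14 for the other sites with BRG1. FOSB at 48 h was called at 3 sites with BRG1 in KO cells, against 0.0579% of all, and at 10 in control cells, against 0.162%. The KO folds were 7.02 at Rtn4, 2.78 at chr2:98666252-98667334 and 1.78 at chr9:3021753-3030327. The chr2 and chr9 sites, far from any start, are those named above with peaks before treatment. The chr2 site also had control FOSB (2.54) and FOSL2 in KO (2.16) and control cells (1.84), and the chr9 site had FOSL2 in KO cells alone (1.49).

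Most of the FOSL2 sites lay at or near genes, of several kinds. Within 2 kb of a start lay 34 of the 46 in control cells (73.9%), against 91.8% of the sites with BRG1 and no FOSL2 there. Azin1, an inhibitor of antizyme, had a FOSL2 fold of 15.2 in KO and 13.5 in control cells, and Tmem65 13.6 and 12.9. At Cacul1 it was 21.6 in KO and 11.8 in control cells, and at Krt78, a keratin gene, 18.9 and 11.2. Ezr, which encodes the membrane-cytoskeleton linker ezrin, had 15.2 in KO and 9.80 in control cells, while Gas2l1 had 6.26 and 9.80. Fosl2 itself had 10.4 in KO and 9.63 in control cells. The sites named by Krt78, Azin1 and Gas2l1 lay 23028, 16271 and 3086 bp from the gene's start. The folds of the KO and control lists are given side by side and were not compared.

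Among the 36 sites with FOSL2 in KO cells alone, named after their values were seen, were those of Mnt, a MAX partner and repressor, at a fold of 14.6, Gigyf2 at 12.6 and Glud1, glutamate dehydrogenase, at 10.9. Klf4 had 9.26, Cdkn1a, the cell cycle inhibitor p21, 7.30, Zeb2, a repressor of epithelial genes, 7.01, Tead1 6.27 and Tgfbr2, the type II TGFβ receptor, 5.89. FOSB peaks of control cells at 48 h included a peak at 7.22 whose site lay 32764 bp from its nearest start, that of the kinase gene Src. Others lay at Srxn1, sulfiredoxin, at 6.67, Atg5, an autophagy gene, at 6.19, Trib1 at 5.36 and Erap1 at 5.28. At Tnfaip3, an inhibitor of NF-kappaB signalling, the fold was 5.00. Srxn1 had FOSL2 folds of 9.82 in KO and 6.81 in control cells, and its window, printed above with Ezr's, holds 2 AP-1 matches. AP-1 matches were in 19 of 65 windows at the KO FOSL2 sites (29.2%, 18.6 to 41.8) and in 14 of 40 at the control FOSL2 sites (35.0%, 20.6 to 51.7). They were in 95 of 3926 windows at sites with no FOSL2 in either genotype (2.42%, 1.96 to 2.95).

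Of 21887 protein-coding genes, 4673 (21.4%) had a PHF10 site with BRG1 within 2 kb of a start. Among 28 SWI/SNF subunit genes, 18 (64.3%, 44.1 to 81.4) had one, 7 had only sites without BRG1 and 3 had no PHF10 site. Those with BRG1 covered the PBAF subunits Arid2, Phf10 and Brd7, the BAF subunits Arid1a and Arid1b, both ATPases, Smarca4 and Smarca2, and the BCL7 genes Bcl7a, Bcl7b and Bcl7c. Pbrm1, Brd9 and Smarcc1 were among those with only sites without BRG1, and Smarcb1, Smarcd2 and Dpf2 had none. Arid2 had a PHF10 fold of 16.5 and 5.07 in the control replicates.

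Of 50 mesenchymal and TGFβ response genes, 20 (40.0%, 26.4 to 54.8) had a site with BRG1. They included the transcription factors Zeb1, Zeb2 and Hmga2, the feedback inhibitors Smad7, Smad6, Skil, Ski and Pmepa1, the receptor Tgfbr2, and the integrins Itgb1, Itgav and Itga5. Skil had a PHF10 fold of 18.3 and 4.86 in the control replicates at 0 h, Zeb1 11.8 and 4.97, and Zeb2 10.96 and 5.29. The matrix genes Col5a1 and Mmp14 and the tropomyosin gene Tpm2 had one too. Another 25 genes had no PHF10 site, among them the transcriptional regulators Snai2, Id1, Id2 and Id3 and the matrix and cytoskeletal genes Fn1, Vim, Acta2, Tagln and Col1a1. The remaining 5 had only sites without BRG1: the transcription factors Snai1 and Twist1, the receptor Tgfbr1, and Mmp2 and Lox. Col5a1, Mmp14, Tpm2, Snai2 and the Id genes were named after their values were seen.

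Of 35 epithelial genes, 11 (31.4%, 16.9 to 49.3) had a site with BRG1, among them Tjp1 and Ocln of the tight junction, Dsp of the desmosome, and the transcription factor genes Grhl1 and Ovol2. Tjp1 had a PHF10 fold of 14.04 and 5.83. Cdh1, the E-cadherin gene, and the keratin genes Krt8, Krt18 and Krt19 had no PHF10 site, and Epcam, Esrp1 and Grhl2 had only sites without BRG1. In all, 16 of the 35 had no PHF10 site and 8 had only sites without BRG1.

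Among 20 AP-1 and ATF genes, 12 (60.0%, 36.1 to 80.9) had a site with BRG1, including Fosl1, Fosl2, Jun, Junb, Jund, Atf4 and Mafg, whereas Fos, Fosb, Atf2 and Atf3 had no PHF10 site. Of 21 Hippo pathway genes, 12 (57.1%, 34.0 to 78.2) had one, such as Lats2, Amotl2, Ajuba and Wwc1, and Ccn1, Ccn2 and Ankrd1 had none. Housekeeping genes had 7 of 20 (35.0%), cytosolic ribosomal protein genes 8 of 40 (20.0%), mitochondrial respiratory chain genes 5 of 34 (14.7%) and cell cycle and replication genes 2 of 30 (6.67%), those of Ccne1 and Mcm3. H3K4me3 at 0 h lay within 2 kb of a start at all 30 cell cycle genes and 37 of the 40 ribosomal protein genes. It did so at 33 of the 34 respiratory chain genes and 27 of the 28 SWI/SNF subunit genes. It also did so at 19 of the 20 AP-1 and ATF genes, 19 of the 21 Hippo pathway genes and 13790 of all 21887 protein-coding genes. The 21.4% of all genes thus includes genes without this mark, which every site with BRG1 had at 0 h. Of 25 markers of other cell types none had a site with BRG1 (0%, 0 to 13.7), and 4 had a site without. The lists are small and were chosen with earlier results known, so their shares are descriptions next to the 21.4% of all genes.

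**Figure D5:**
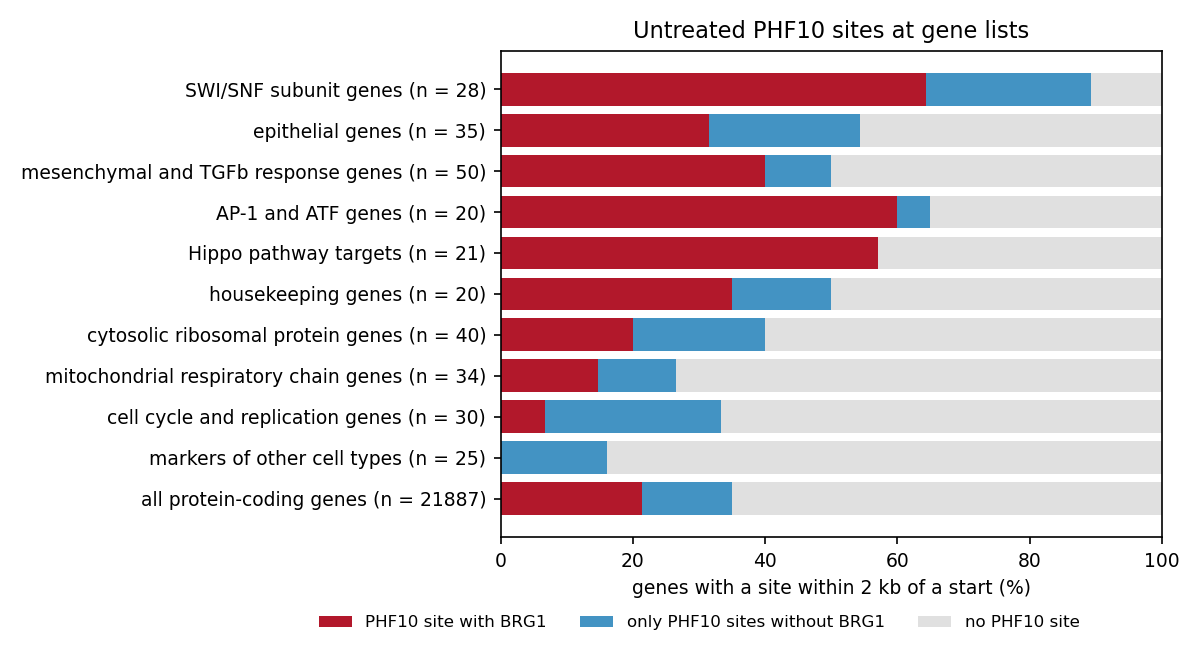
Share of genes in 10 lists, and in all protein-coding genes, with an untreated PHF10 site within 2 kb of a start. Red is a site with BRG1, blue only sites without BRG1 and grey no PHF10 site, in percent of the genes found. SWI/SNF subunit genes have the longest red bar, at 64.3%, and markers of other cell types have none.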

How the data were processed

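Peak lists of 32 ChIP-seq libraries were analysed as the authors deposited them. The submitters' processing notes name the mm10 build, MACS3 3.0.0a7, Bowtie2 2.3.3, fastp 0.19.5, deepTools 3.5.1 and Partek 11.0.24.0325, without saying which step each served. Per the file columns, the authors give each peak a pileup signal, a −log10 p-value, a −log10 q-value and a fold enrichment, which is a ratio over input. PHF10 and BRG1 lists reach down to −log10 q of about 1.0 and histone mark lists to about 1.3, while the lowest value of the ATF3, FOSL2 and FOSB lists ranges from 1.30 to 117, the highest in a list of 2 peaks. Each library has its own list, with no pooled replicates stated.

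Sites were built and overlapped (1 bp) with Python 3.11.15, pandas 2.3.3 and NumPy 2.4.6, intervals came from SciPy 1.17.1 and figures from matplotlib 3.10.9. The code that joins peaks, finds overlaps and finds the nearest start was tested on simulated data. Coordinates are 1-based. Shares carry exact Clopper-Pearson intervals and differences Newcombe intervals, for counting error only. Stricter thresholds, shorter lists, a larger overlap, the stronger sites and single replicates were tried as alternatives. Genes were named by the nearest protein-coding start within 100 kb. Sites with no such start were left out of the rankings that pick named sites. The text names the 8 sites with the highest mean PHF10 percentile, the 6 with the highest BRG1 fold, up to 6 for each absence or factor list, up to 8 per gene list and the genes of the proteins studied, and says where others were added; a few named genes are not reported here. Members, gene lists and motifs were chosen with earlier results of these data known.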

Additional observations from a re-analysis of the deposited data

How the results depend on the processing

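All values here are numbers of sites with BRG1 or differences in percentage points, sites with BRG1 minus sites without. With −log10 q of at least 5 in every list 95 sites with BRG1 were left, and with that threshold on the BRG1 list alone 116. Keeping the 10000 most significant peaks per list left 2021, and the stronger 0.5 of the PHF10 sites by fold 2928. Joining sites from 1 untreated PHF10 list gave 4671 to 5808. The threshold on BRG1 alone and the limit to sites within 2 kb of a start were added after seeing the data.

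With −log10 q of at least 5 in every list, 2 differences turned: H3K27ac at 0 h to −1.212 and H3K4me1 at 0 h to 1.567. The other values there were 0.223 for H3K4me3 at 0 h, 28.329 for PHF10 in both 48 h lists, 6.316 for KO PHF10 at 0 h, 0.112 for ATF3 at 48 h, 3.541 for FOSL2 at 48 h, 23.054 for H3K14ac at 0 h and 2.488 for H3K18ac at 48 h. With the threshold on BRG1 alone, they were 0.411 for H3K4me3, 2.455 for H3K27ac, 5.278 for PHF10 at 48 h, 3.904 for KO PHF10, 0.399 for ATF3, 3.782 for FOSL2, −12.595 for H3K4me1 and 25.980 for H3K18ac. With the 10000 most significant peaks per list, they were 23.260 for H3K4me3, 26.838 for H3K27ac, 17.111 for PHF10 at 48 h, 5.506 for KO PHF10, 19.372 for ATF3, 1.285 for FOSL2, −19.397 for H3K4me1, 28.684 for H3K14ac and 28.492 for H3K18ac. Fewer peaks and sites entered each of these settings, and the cause of the turned signs was not tested.

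With the stronger PHF10 sites, the values were 0.432 for H3K4me3, 7.059 for H3K27ac, 3.793 for KO PHF10, 0.432 for ATF3, 37.369 for H3K14ac and 46.641 for H3K18ac. Within 2 kb of a start, they were 0.000 for H3K4me3, 6.018 for H3K27ac, 7.749 for PHF10 at 48 h, 3.718 for KO PHF10, 0.069 for ATF3, −30.623 for H3K4me1 and 46.314 for H3K18ac. An overlap of at least 50% of the shorter feature gave 14.040 for PHF10 at 48 h, −32.442 for H3K4me1 and 51.551 for H3K18ac.

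Leaving out replicates in turn gave 15.014 to 22.509 for H3K4me3, 31.988 to 33.070 for H3K27ac, 1.808 to 36.164 for PHF10 at 48 h, 31.426 to 36.438 for KO PHF10, 14.049 to 22.621 for ATF3, 0.719 to 1.053 for FOSL2, −21.092 to −19.528 for H3K4me1, 32.219 to 38.526 for H3K14ac and 59.748 to 65.654 for H3K18ac. The lowest PHF10 value at 48 h was without 48 h replicate 1. Sites of 1 list include many that the other list lacks. Among these counts and differences, 30 of the values stayed within their counting error or within 1.5 times the number of sites, 60 moved further and 2 turned sign. Those that stayed include every one with unplaced sequences added to the chromosomes. No paired analysis was possible because no result comes from a test. Control PHF10 at 0 and 48 h share replicate numbers 1 and 2, and the 0 h lists define the sites. Read depth is unknown, so depth limits cannot be given.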

Other observations

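The share of PHF10 sites with BRG1 ranged widely over the chromosomes. It was 30.9% on chromosome X (62 of 201 sites), against 45.7% to 66.5% on the autosomes, with the lowest on chromosome 7 and the highest on chromosome 19. The 62 sites on chromosome X had H3K4me1 at 96.8% at 48 h and 71.0% at 0 h, against 58.0% and 38.8% of all 4659, and their median PHF10 fold was 9.21 in replicate 1. The copy number of the chromosomes in this line was not analysed here.

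Bcor, the gene of a Polycomb-associated corepressor on chromosome X, was the nearest gene of 4 separate sites with BRG1. Of the 390 sites more than 2 kb from a protein-coding start, 179 (45.9%) lay within 2 kb of an end of some annotated gene, against 439 of 1062 sites without BRG1 (41.3%).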
